A study of Mus musculus with 14 samples.

Results

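Complement and coagulation are plasma enzyme cascades whose proteins are made largely by hepatocytes. The genes described here are 47 factors of the 2 cascades, matched by gene symbol among the 54532 genes of the liver count table, and all 47 passed the filter on low counts that left 15118 genes for testing. In cultured pancreatic stellate cells (PSCs), the collagen-producing cells of the pancreas, 23 of the 47 were among the 16481 genes listed and 20 were among the 15145 genes tested.

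Complement starts on antibody-bound surfaces through C1q (classical pathway), on microbial sugars through mannose-binding lectins (lectin pathway), or by direct turnover of C3 (alternative pathway). Each route cleaves C3, releases small fragments that act on receptors of myeloid cells, and ends in assembly of the membrane attack complex from C5 to C9. Coagulation starts when tissue factor meets factor VII, passes through factors IX, VIII, X and V to thrombin, and ends when thrombin turns fibrinogen into fibrin, which factor XIII crosslinks and plasmin dissolves. Fibrinogen is also a classical acute-phase protein of the liver, whereas C1q is made mainly by macrophages and tissue factor by stromal cells.

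The study asked whether loss or block of TRPV4, a calcium-permeable ion channel, alters the liver in mice carrying a pancreatic tumor. All 8 livers came from mice of 8 to 12 weeks of age that received 100000 KPCY cells, a mouse pancreatic cancer line with functional TRPV4, in the tail of the pancreas, and livers were collected 20 days later. There were 2 WT livers, 3 livers from mice with a global TRPV4 deletion (TRPV4-KO), and 3 livers from WT mice given the TRPV4 antagonist GSK2193874 (GSK219) at 10 mg/kg by gavage every 24 h in 6% cavitron. The PSCs were 3 mouse preparations, each cultured for 3 days and treated with DMSO or with 25 μM Yoda1, an agonist of the ion channel PIEZO1, for 24 h per the study's methods (72 h per a supplementary legend). According to the methods, mice called WT carried the floxed Piezo1 allele without Cre. The genotype at Piezo1 of the TRPV4-KO mice is not given in the sources used here, so an effect of that allele or of strain cannot be told apart from that of TRPV4. Whether the WT mice received gavage with vehicle is not given either. An effect of gavage or of cavitron therefore cannot be told apart from that of GSK219.

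Library sizes were 15567031 to 17395299 counts per liver and 27312894 to 39070539 reads per PSC library. In each PSC preparation the Yoda1 library was the larger. Trpv4 itself was low, with 43 and 53 counts in WT livers, 15, 5 and 23 in TRPV4-KO livers and 20, 30 and 36 in GSK219 livers. Its difference between WT and TRPV4-KO did not pass (log2 fold change 1.71, SE 0.50, adjusted p = 0.161 by edgeR's quasi-likelihood test). In each group 1 liver (WT 1, TRPV4-KO 3 and GSK219 3) held 13681 to 15754 reads of Xist, the RNA of the inactive X chromosome of females, and the other 5 held 0 to 7. The labels give no sex, and the study used both.

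The 2 cascades took a sizeable share of the liver's RNA. The 47 genes together held 8.10% and 6.64% of all counts in WT livers, 5.31%, 4.87% and 6.40% in TRPV4-KO livers, and 5.61%, 6.73% and 6.11% in GSK219 livers. In PSCs the 23 listed genes held 0.0568% to 0.0833% of reads. Both WT values lay above all TRPV4-KO values, whereas WT 2 lay below GSK219 2.

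Per kb of gene length, C3, the protein on which all complement pathways converge, had the highest level in livers, with a median of 2814 CPM per kb (CPM being counts scaled to library size, range 2222 to 4244). The fibrinogen chains Fga (median 2125 CPM per kb), Fgg (1887) and Fgb (1393) and vitronectin, Vtn (1569), a plasma adhesion protein that also limits the membrane attack complex, came next. The ranges over livers of C3 and Fga overlapped, as did those of Fga, Fgg and Fgb. Within a liver, C3 was above Fga in 6 of 8, and Fga was above Fgg and Fgg above Fgb in 8 of 8. Apoh, a phospholipid-binding plasma protein, followed at 911 CPM per kb, then the kininogen Kng1 at 783 and plasminogen, Plg, at 728.

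At the low end stood genes known mainly from cells other than hepatocytes, with the exception of factor B (Cfb), at 2.11 CPM per kb. F13a1, the catalytic subunit of factor XIII, had a median of 0.0713 CPM per kb, factor D (Cfd) 0.377, the C5a receptor C5ar1 0.964, the C3a receptor C3ar1 1.42 and tissue factor (F3) 1.43. F8, which is made by endothelial cells, had 3.69 CPM per kb, against 64.9 for its partner F9, which hepatocytes make. The range of F8 over the 8 livers (2.71 to 3.93) did not overlap that of F9 (63.7 to 73.5).

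**Figure D1:**
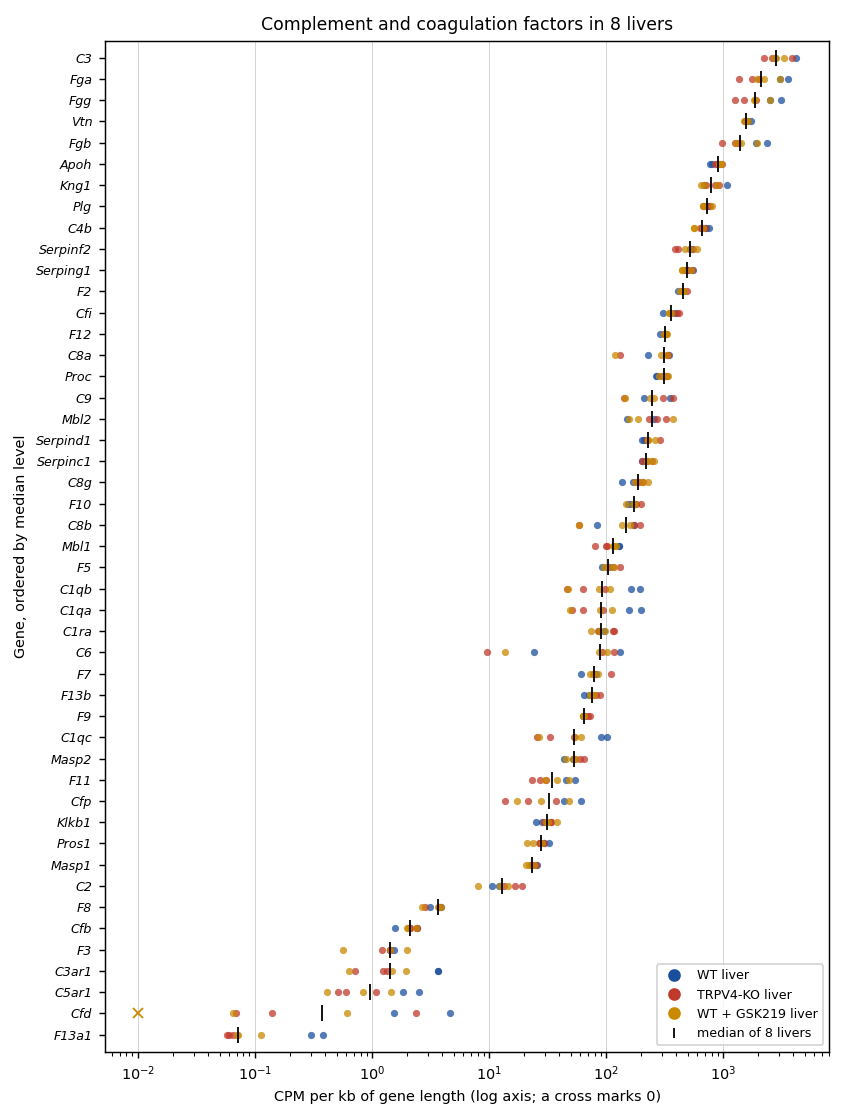
Level of each of the 47 genes in each of the 8 livers, in CPM per kb of gene length on a log axis, with genes ordered by their median (black tick) and livers colored by group. C3 stands at the top with a median of 2814 and F13a1 at the bottom with 0.0713, and C6 and Cfd scatter widely within groups.

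Levels of a few genes are uncertain because their exons overlap others on the same strand. The annotated gene Gm20547 covers 79.5% of the exon bases of Cfb (factor B, median 2.11 CPM per kb) and 42.8% of those of C2 (13.0), and it was listed at 0 counts in all 8 livers. Gm45753 covers 43.2% of the exon bases of Klkb1 (plasma prekallikrein) and held 0 to 3 counts. C4b shares long stretches with its close copy C4a, and C1ra with C1rb.

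WT and TRPV4-KO livers differed in few of these genes by the threshold applied to all genes (adjusted p under 0.05 together with a difference of more than 1 on the log2 scale), although the leading members were high in both WT livers. Of the 47 genes, 1 was called higher in WT, F13a1, against 0.152% of all genes tested, and 0 were called lower, against 0.112%. DESeq2 called 5 higher, C1qa, C1qb, C1qc, C3ar1 and F13a1, against 2.45% of all genes, and 0 lower, against 0.787%. At an unadjusted p under 0.05, 11 were higher in WT (9.5% of all genes tested were) and 2 were lower (7.61%). Both WT values exceeded all 3 TRPV4-KO values for 14 members (17.7% of all genes) and lay below them for 10 (15.5%). The median log2 fold change of the 47 was 0.06, against -0.01 for all genes.

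The 11 fell into a few roles. They were the 3 chains of C1q, both anaphylatoxin receptors, the 3 chains of fibrinogen, F13a1, F11 (factor XI of the contact system) and the lectin Mbl1. The genes of the initiation, common, anticoagulant and fibrinolytic steps, 13 in all, gave none in either direction (9.5% of all genes were higher and 7.61% lower). Neither did C3 or the genes of the alternative and terminal pathways, the complement regulators, or Vtn and Apoh.

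**Figure D2:**
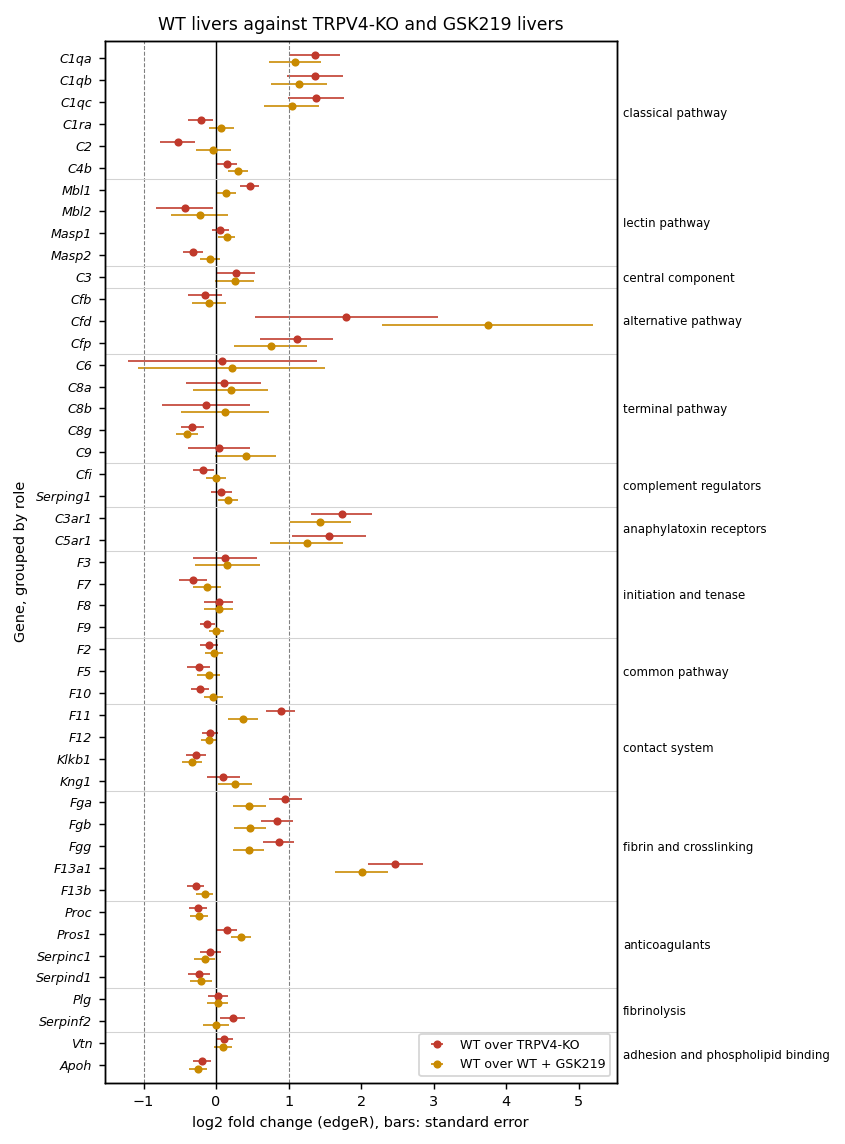
Log2 fold change with its standard error (edgeR) of each of the 47 genes, grouped by role, for WT over TRPV4-KO and WT over GSK219 livers, which share the 2 WT livers. The C1q chains, C3ar1, C5ar1 and F13a1 lie right of 1 in both comparisons, the fibrinogen chains between 0.45 and 0.95, and most other genes lie near 0 apart from Cfd, Cfp, F11 and C2.

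F13a1 encodes the factor XIII subunit that crosslinks fibrin, and it is known from monocytes, macrophages and platelets rather than hepatocytes. Its level was 2.60 and 2.04 CPM in WT livers, 0.443, 0.389 and 0.405 CPM in TRPV4-KO livers and 0.755, 0.483 and 0.478 CPM in GSK219 livers, from 42 and 35, 7, 6 and 7, and 12, 8 and 8 counts. The WT livers stood apart from the other 6. F13a1 was 5.54-fold higher in WT than in TRPV4-KO (log2 fold change 2.47, SE 0.38, adjusted p = 0.0499 by edgeR). The call was just past the threshold. Leaving out any liver other than TRPV4-KO 3 ended it (adjusted p 0.068 to 0.407), and so did a fit of only the 2 groups (adjusted p = 0.127), whereas the fold change stayed between 2.30 and 2.65 on the log2 scale when single livers were left out.

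F13b, the carrier subunit of factor XIII that hepatocytes make, did not follow F13a1. Its level was 179.7 and 164 CPM in WT livers, 224, 207 and 196 CPM in TRPV4-KO livers and 190.0, 202 and 184 CPM in GSK219 livers. The WT livers lay below all others, with a log2 fold change of -0.28 (SE 0.11, edgeR adjusted p = 0.262) against TRPV4-KO. Markers of hepatocytes, which make F13b and most other members that were lower in WT, summed to 77716 and 70111 CPM in WT livers and to 90841 to 114849 CPM in the 6 others. Of the 12 markers, 10 had a negative log2 fold change between WT and TRPV4-KO, with a median of -0.24, and 1, Alb, had an unadjusted p under 0.05 (log2 fold change -0.81, edgeR adjusted p = 0.151). Their part in the values of F13b, Masp2, C8g, Klkb1, Proc, Apoh and Serpind1 was not tested.

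The fibrinogen chains form the clottable protein, and their genes lie side by side on mouse chromosome 3 (GRCm38), Fgg at chr3:83007724-83015049 on the plus strand, Fga at chr3:83026076-83033627 on the plus strand and Fgb at chr3:83040141-83049863 on the minus strand. Fga measured 10760 and 9250 CPM in WT livers, 5320, 4110 and 6066 CPM in TRPV4-KO livers and 5915, 9180 and 6725 CPM in GSK219 livers. Fgb measured 9107 and 7253 CPM, 4840, 3748 and 5160 CPM, and 5452, 7376 and 4909 CPM in the same order. Fgg measured 6540 and 5307 CPM, 3157, 2654 and 3979 CPM, and 3887, 5231 and 3922 CPM. For all 3 chains both WT livers were above all TRPV4-KO livers, GSK219 2 was close to or above WT 2, and the other GSK219 livers lay lower.

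None of the 3 chains passed the adjusted threshold between WT and TRPV4-KO. The log2 fold changes were 0.95 (SE 0.23) for Fga, 0.84 (SE 0.22) for Fgb and 0.86 (SE 0.22) for Fgg, with edgeR adjusted p of 0.123, 0.144 and 0.135. Without TRPV4-KO 3, Fga (log2 fold change 1.09, edgeR adjusted p = 0.0386) and Fgg (1.03, adjusted p = 0.0325) were called. The 17 other acute-phase genes listed for hepatocytes, chosen with earlier results of these data known, differed in the same direction. Of these, 17 of 17 were positive, with a median log2 fold change of 1.03. An unadjusted p under 0.05 was found for 12 (9.5% of all genes tested were higher at that level), and 2 were called (0.152%). Their summed level was 60620 and 43779 CPM in WT livers, 20298 to 26369 CPM in TRPV4-KO livers and 22757 to 25238 CPM in GSK219 livers, and its relation to the fibrinogen chains was not tested.

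The 250 bases before the RefSeq start of each chain (GRCm38.p6) are shown because the 3 chains had like fold changes and interleukin-6 is known to raise fibrinogen through short elements in such promoters. They were searched on both strands for CTGGGA, the core of the type II interleukin-6 response element, and for TTCNNNGAA, the STAT palindrome, both in capitals. The windows are chr3:83025903-83026152 on the plus strand for Fga, chr3:83049864-83050113 on the minus strand for Fgb and chr3:83007474-83007723 on the plus strand for Fgg, each written 5′ to 3′.
Fga: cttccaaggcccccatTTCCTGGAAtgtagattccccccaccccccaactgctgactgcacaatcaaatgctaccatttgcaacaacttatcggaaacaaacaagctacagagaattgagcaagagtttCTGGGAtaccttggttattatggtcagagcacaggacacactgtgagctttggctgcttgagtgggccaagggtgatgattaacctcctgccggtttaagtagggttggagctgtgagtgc
Fgb: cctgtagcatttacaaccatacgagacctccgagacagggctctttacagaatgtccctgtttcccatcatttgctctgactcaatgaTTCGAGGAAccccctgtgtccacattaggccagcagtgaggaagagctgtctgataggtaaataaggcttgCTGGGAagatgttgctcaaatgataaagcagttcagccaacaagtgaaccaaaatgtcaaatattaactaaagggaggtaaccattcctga
Fgg: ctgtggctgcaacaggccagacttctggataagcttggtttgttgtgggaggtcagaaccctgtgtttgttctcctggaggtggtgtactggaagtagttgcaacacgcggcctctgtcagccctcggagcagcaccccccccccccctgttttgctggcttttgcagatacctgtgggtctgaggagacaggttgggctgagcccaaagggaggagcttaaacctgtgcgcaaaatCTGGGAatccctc
CTGGGA was found in all 3 windows, starting at -121 from the start site in Fga, -91 in Fgb and -13 in Fgg, and it occurs in 27.0% of 32851 promoter windows of this length. Positions count from the RefSeq start. For Fga that start lies inside the gene span given above (from chr3:83026076), so the end of its window overlaps that span. TTCNNNGAA was found in Fga at -234 and in Fgb at -162, against 7.02% of windows. Among the 37 members with a window in the RefSeq table used here, CTGGGA occurred in 14 and TTCNNNGAA in 6. Of the other motifs searched, TTNNGNAAT (C/EBP, 10.2% of windows) was found in 7 of the 37, the HNF1 motif (0.371%) in 1 and TATAAA (12.4%) in 3, none of them a fibrinogen chain. A match is only a run of letters and does not show binding.

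The C1q chains are encoded in a cluster on chromosome 4 (C1qa chr4:136895917-136898803, C1qc chr4:136889804-136893065, C1qb chr4:136880129-136886187, all on the minus strand) and assemble into the recognition molecule of the classical pathway. C1qa measured 207 and 163 CPM in WT livers, 65.9, 53.6 and 97.3 CPM in TRPV4-KO livers and 51.4, 92.8 and 117 CPM in GSK219 livers. C1qb measured 213 and 178 CPM, 69.1, 51.0 and 107 CPM, and 51.6, 95.6 and 118 CPM. C1qc measured 198 and 176 CPM, 64.2, 49.6 and 103 CPM, and 51.4, 104 and 117 CPM. In every chain both WT livers lay above all 6 other livers, and within each group the liver with Xist reads was the highest.

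The chains were 2.56-, 2.57- and 2.59-fold higher in WT than in TRPV4-KO for C1qa, C1qb and C1qc, with log2 fold changes of 1.36, 1.36 and 1.37 (SE 0.35 to 0.38). Their edgeR adjusted p was 0.148, 0.158 and 0.157. With a term for Xist reads in the fit, C1qa (edgeR adjusted p = 0.0340) and C1qb (0.0454) were called and C1qc was not (0.0534). That fit called 4 members higher in WT, the other 2 being C3ar1 and F13a1, against 1.67% of all genes tested, and 0 lower, against 0.483%.

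The receptors for the C3a and C5a fragments, C3ar1 and C5ar1, are carried by myeloid cells. C3ar1 measured 15.8 and 15.9 CPM in WT livers, 5.31, 3.11 and 5.85 CPM in TRPV4-KO livers and 2.77, 6.34 and 8.43 CPM in GSK219 livers. C5ar1 measured 6.43 and 4.72 CPM, 1.33, 1.55 and 2.78 CPM, and 1.07, 2.17 and 3.77 CPM. Again both WT livers were above all others. The log2 fold change between WT and TRPV4-KO was 1.73 (SE 0.42, edgeR adjusted p = 0.125) for C3ar1 and 1.55 (SE 0.51, edgeR adjusted p = 0.191) for C5ar1. With the Xist term C3ar1 was called (edgeR adjusted p = 0.0486) and C5ar1 missed the threshold (0.0506).

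Markers of the cells that make C1q and these receptors moved with them. Of 12 Kupffer cell and macrophage markers, the 12 were higher in both WT livers than in every TRPV4-KO liver (17.7% of all genes were). Their median log2 fold change was 1.30, and 11 had an unadjusted p under 0.05 (9.5% of all genes were higher at that level). Their summed level was 2096 and 1817 CPM in WT livers, 771, 541 and 1145 CPM in TRPV4-KO livers and 587, 1021 and 1333 CPM in GSK219 livers, and none was at 0 in any liver. Monocyte and dendritic cell markers summed to 49.9 and 31.0 CPM in WT livers and to 10.2 to 28.9 CPM in TRPV4-KO livers, and neutrophil markers to 64.8 and 80.9 CPM against 1.77 to 8.05 CPM. Platelet markers, beside F13a1, summed to 16.02 and 12.6 CPM in WT livers and to 5.31 to 10.7 CPM in TRPV4-KO livers, with Gp1bb at 0 in all 8 livers. The same direction was seen for markers of other cells. Hepatic stellate and fibroblast markers were positive in 10 of 10 (median log2 fold change 0.88), and liver endothelial markers in 10 of 10 (median 0.24). The part of these cells in the result was not tested. In bulk tissue, fewer cells of a type and less RNA per cell cannot be told apart.

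**Figure D3:**
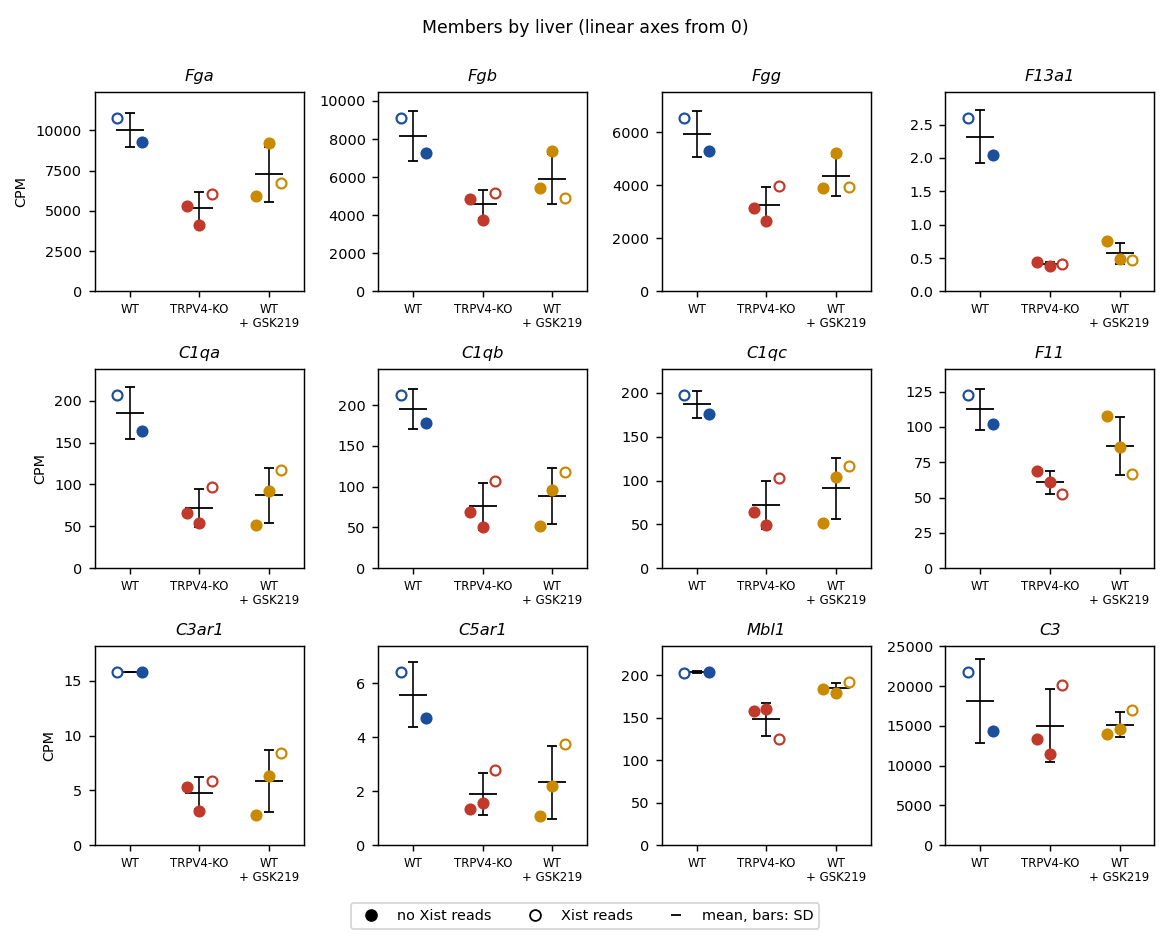
CPM of 12 genes in each liver by group, with the group mean and SD and open circles for the 3 livers with Xist reads. The genes are C3 and the 11 members that were higher in WT than in TRPV4-KO at an unadjusted p under 0.05 (edgeR). Both WT livers lie above all TRPV4-KO livers for these 11, which follows largely from that choice (17.7% of all genes tested do so). For C3, TRPV4-KO 3 (20190) exceeds WT 2 (14355).

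F11 was the only contact-system gene among the 11. It measured 123 and 102 CPM in WT livers, 68.7, 61.4 and 52.4 CPM in TRPV4-KO livers and 108, 85.6 and 66.9 CPM in GSK219 livers. WT exceeded TRPV4-KO by 1.85-fold (log2 fold change 0.89, SE 0.20, edgeR adjusted p = 0.115). Its neighbor on chromosome 8, Klkb1, went the other way, with 149 and 133 CPM in WT livers and 177, 179 and 154 CPM in TRPV4-KO livers (log2 fold change -0.27, edgeR adjusted p = 0.359). F12, the starter of the contact system, and Kng1 differed by -0.08 and 0.10 on the log2 scale.

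In the lectin pathway, Mbl1 measured 203 and 204 CPM in WT livers, 158, 161 and 126 CPM in TRPV4-KO livers and 183, 179.5 and 192 CPM in GSK219 livers (for WT over TRPV4-KO, log2 fold change 0.46, SE 0.13, edgeR adjusted p = 0.157). Its homolog Mbl2 measured 283 and 167 CPM in WT livers, 258, 298 and 357 CPM in TRPV4-KO livers and 205, 172 and 413 CPM in GSK219 livers, and the groups overlapped. Masp2, a protease that acts with both lectins, was lower in WT, with 145 and 171 CPM against 215, 198 and 179 CPM in TRPV4-KO livers and 173, 179 and 151 CPM in GSK219 livers (for WT over TRPV4-KO, log2 fold change -0.32, SE 0.14, edgeR adjusted p = 0.285). Of the exon bases of Masp2, 54.9% overlap Tardbp on the opposite strand, and whether the counting used strand is not given in the sources used here.

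C3 measured 21828 and 14355 CPM in WT livers, 13376, 11429 and 20190 CPM in TRPV4-KO livers and 13939, 14585 and 16964 CPM in GSK219 livers. The highest liver of each group was the liver with Xist reads. Between groups C3 differed by 0.27 (SE 0.27, edgeR adjusted p = 0.665) on the log2 scale for WT over TRPV4-KO and by 0.25 for WT over GSK219. C2, the classical and lectin pathway protease that cleaves C3 as part of the convertase, measured 41.2 and 47.03 CPM in WT livers, 65.1, 73.8 and 52.3 CPM in TRPV4-KO livers and 56.3, 48.5 and 31.5 CPM in GSK219 livers (for WT over TRPV4-KO, log2 fold change -0.53, SE 0.25, edgeR adjusted p = 0.318). Properdin (Cfp), the stabilizer of the alternative pathway convertase, which myeloid cells make, measured 106 and 75.5 CPM in WT livers, 37.4, 23.6 and 64.5 CPM in TRPV4-KO livers and 30.0, 48.1 and 83.4 CPM in GSK219 livers (for WT over TRPV4-KO, log2 fold change 1.11, SE 0.50, edgeR adjusted p = 0.317).

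Among the clotting proteases, thrombin (F2) ranged from 1912 to 2258 CPM and F9 from 174 to 201 CPM. F7 measured 153 and 115 CPM in WT livers, 148, 146 and 206 CPM in TRPV4-KO livers and 135, 144 and 157 CPM in GSK219 livers. F8 measured 38.5 and 31.2 CPM, 37.2, 27.9 and 36.8 CPM, and 26.8, 36.3 and 38.9 CPM. These groups overlapped for F2, F7 and F8, whereas F9, F10, Proc and Serpind1 lay lower in both WT livers than in all 3 TRPV4-KO livers. The log2 fold changes of the 7 initiation, tenase and common pathway genes between WT and TRPV4-KO lay between -0.32 (F7) and 0.13 (F3). Protein C (Proc), the vitamin K-dependent anticoagulant, measured 415 and 428 CPM in WT livers, 512, 518 and 468 CPM in TRPV4-KO livers and 534, 505 and 446 CPM in GSK219 livers, below both other groups in WT (log2 fold change -0.24, SE 0.12, edgeR adjusted p = 0.363 against TRPV4-KO). Tissue factor, F3, measured 3.59 and 3.90 CPM in WT livers, 3.60, 3.63 and 3.07 CPM in TRPV4-KO livers and 5.03, 3.62 and 1.43 CPM in GSK219 livers, from 24 to 80 counts per liver. WT and TRPV4-KO differed in F3 by 0.13 (SE 0.44, edgeR adjusted p = 0.919) on the log2 scale.

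WT and GSK219 livers, a comparison that uses the same 2 WT livers, differed less firmly. Of the 47 genes, 0 were called in either direction by edgeR, as were 0% of all genes tested, and DESeq2 called 1 higher (F13a1, adjusted p = 0.0345), against 0.423% of all genes, and 0 lower, against 0.0661%. At an unadjusted p under 0.05, 8 were higher in WT (5.87% of all genes) and 2 lower (2.34%). Both WT livers exceeded all 3 GSK219 livers for 12 members (15.6% of all genes) and lay below them for 7 (11.7%). With the Xist term 0 members were called as well, against 0.0132% of all genes in each direction.

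The 8 were again the C1q chains, C3ar1, C5ar1 and F13a1, with Cfd and Pros1. F13a1 was 4.02-fold higher in WT (log2 fold change 2.01, SE 0.37, edgeR adjusted p = 0.341). C3ar1 differed by 1.44 (SE 0.42) and the C1q chains by 1.04 to 1.14 on the log2 scale (SE 0.35 to 0.38), with edgeR adjusted p of 0.527 to 0.566. The fibrinogen chains differed by 0.46 (Fga), 0.47 (Fgb) and 0.45 (Fgg), with an SE of 0.22 to 0.23 and edgeR adjusted p of 0.636 to 0.667.

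Cfd, or adipsin, is the protease that activates factor B, and adipocytes are its best known source. It measured 1.42 and 4.25 CPM in WT livers, 0.0632, 0.130 and 2.20 CPM in TRPV4-KO livers and 0.566, 0.0604 and 0 CPM in GSK219 livers, from 23 and 73, 1, 2 and 38, and 9, 1 and 0 counts. Values spread widely within each group, and TRPV4-KO 3 was above WT 1. The log2 fold change of WT over GSK219 was 3.74 with an SE of 1.46 (edgeR adjusted p = 0.571), and it was 6.24 without GSK219 1, 4.31 without WT 1, 3.16 without GSK219 3 and 2.73 without WT 2. In a list of adipocyte markers chosen after these values were seen, Adipoq had 8 and 9 counts in WT livers, 3 in TRPV4-KO 3 and 0 in the other 5 livers, and Retn had 4, 9 and 4 in those 3 livers and 0 in the others. Plin1 had 0 to 4 counts per liver, and Lep had 7 in WT 2 and 0 in the others. Plin4, the only marker of the 5 that was tested, did not follow Adipoq and Retn, with 66 and 102 counts in WT livers, 239, 174 and 35 in TRPV4-KO livers and 87, 90 and 110 in GSK219 livers. Their part in the Cfd values was not tested.

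Below GSK219 in WT stood C8g and Klkb1. C8g, the gamma chain of C8, measured 206 and 254 CPM in WT livers, 272, 309 and 285 CPM in TRPV4-KO livers and 305, 264 and 344 CPM in GSK219 livers (log2 fold change against GSK219 -0.40, SE 0.15, edgeR adjusted p = 0.569). Klkb1 measured 202, 169 and 162 CPM in GSK219 livers (log2 fold change -0.34, SE 0.14, edgeR adjusted p = 0.582). Apoh, at 1225 and 1296 CPM in WT livers, 1427, 1351 and 1559 CPM in TRPV4-KO livers and 1499, 1477 and 1521 CPM in GSK219 livers, differed by -0.25 between WT and GSK219 (edgeR adjusted p = 0.650). Serpind1, the thrombin inhibitor heparin cofactor II, measured 465 and 449 CPM in WT livers, 487, 495 and 631 CPM in TRPV4-KO livers and 581, 504 and 503 CPM in GSK219 livers (for WT over GSK219, log2 fold change -0.21, edgeR adjusted p = 0.793).

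TRPV4-KO and GSK219 livers were compared directly as well. By edgeR, and by DESeq2, 0 members were called in either direction (by edgeR 0.0529% of all genes were called higher and 0.0463% lower in TRPV4-KO, and by DESeq2 0.298% and 0.318%). At an unadjusted p under 0.05, 0 were higher (3.48% of all genes) and 3 were lower in TRPV4-KO (2.64%), F11, Mbl1 and Fga. All 3 TRPV4-KO livers lay above all GSK219 livers for 3 members (5.85% of all genes) and below them for 2 (4.35%), F13a1 and Mbl1. F11 differed by -0.51 (SE 0.19, edgeR adjusted p = 0.728), Mbl1 by -0.32 (SE 0.12, edgeR adjusted p = 0.728) and Fga by -0.49 (SE 0.21, edgeR adjusted p = 0.801) on the log2 scale. In the other direction C2, with the smallest unadjusted p, differed by 0.49 (SE 0.22, edgeR adjusted p = 0.827). For F11 the GSK219 livers overlapped both other groups, since GSK219 1 lay above WT 2 and GSK219 3 below TRPV4-KO 1.

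The other 2 fibrinogen chains were also lower in TRPV4-KO than in GSK219, although the groups overlapped. Fgg differed by -0.41 (SE 0.20, edgeR adjusted p = 0.864) and Fgb by -0.37 (SE 0.20, edgeR adjusted p = 0.886) on the log2 scale. The remaining leading members of this comparison differed less. Factor X (F10) measured 495, 481 and 549 CPM in TRPV4-KO livers against 403, 462 and 479 CPM in GSK219 livers (log2 fold change 0.18, SE 0.11, edgeR adjusted p = 0.915). Factor I (Cfi), which inactivates C3b and C4b, measured 907, 799 and 926 CPM against 761, 771 and 796 CPM (log2 fold change 0.18, SE 0.13, edgeR adjusted p = 0.938). Neither gene overlapped between the 2 groups, and the WT livers, at 447 and 425 CPM for F10 and 866 and 686 CPM for Cfi, overlapped GSK219 in both. The plasmin inhibitor Serpinf2 measured 965, 907 and 1281 CPM against 1207, 1382 and 1105 CPM, Pros1 121, 112 and 109 CPM against 97.5, 116 and 85.7 CPM, and the C1 protease C1ra 340.0, 350.5 and 256 CPM against 260.0, 294 and 222 CPM, and these groups overlapped. In WT livers Serpinf2 measured 1243 and 1217 CPM, Pros1 133 and 120.1 CPM and C1ra 259 and 285 CPM.

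The terminal pathway assembles the membrane attack complex, and C6, C8a, C8b and C9 scattered widely within every group, whereas C8g did not. C6 measured 87.0 and 467 CPM in WT livers, 331, 419 and 34.4 CPM in TRPV4-KO livers and 362, 308 and 48.4 CPM in GSK219 livers. C8b measured 216 and 442 CPM, 445, 494 and 149.7 CPM, and 409, 347 and 150.2 CPM. C8a measured 829.8 and 1255 CPM, 1197, 1232 and 482 CPM, and 1209, 1083 and 431 CPM. In each group the low liver was the liver with Xist reads, and these 3 livers did not overlap the other 5 in C6, C8a, C8b or C9. A lack of overlap in this direction was found for 6 members and for 6.08% of all genes.

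The term for Xist reads, fitted beside the group means and not a group of the study, called 3 members lower with Xist reads (0.86% of all genes tested) and 0 higher (1.05%). With no fold threshold 4 were lower (1.48%) and 1, Mbl2, was higher (1.99%), and at an unadjusted p under 0.05 7 were lower (8.73%) and 8 higher (13.4%). C6 was 7.53-fold lower with Xist reads (log2 fold change -2.91, SE 0.21, edgeR adjusted p = 0.000187), at 56.6 ± 27.2 CPM (SD, n = 3) against 377 ± 65.3 CPM (SD, n = 5). C8b was 2.57-fold lower (log2 fold change -1.36, SE 0.13, edgeR adjusted p = 0.000953) and C8a 2.23-fold lower (log2 fold change -1.16, SE 0.16, edgeR adjusted p = 0.00661). C9, the pore-forming component, measured 544 and 906 CPM in WT livers, 789, 955 and 364 CPM in TRPV4-KO livers and 663, 609 and 371 CPM in GSK219 livers, and was lower by 0.94 on the log2 scale (SE 0.13, edgeR adjusted p = 0.00855), short of the fold threshold. C8g did not follow its partner chains, with a log2 difference of 0.01 (edgeR adjusted p = 0.973). C8a (chr4:104815679-104876398, minus strand) and C8b (chr4:104766317-104804548, plus strand) are neighbors. C6 (chr15:4727175-4814967) and C9 (chr15:6445327-6498751) lie farther apart on the plus strand of chromosome 15, and between them, on the minus strand, lies the terminal pathway gene C7 (chr15:4988762-5063740), which is not among the 47 genes and had a log2 difference of 0.02 with Xist reads (edgeR adjusted p = 0.982).

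**Figure D4:**
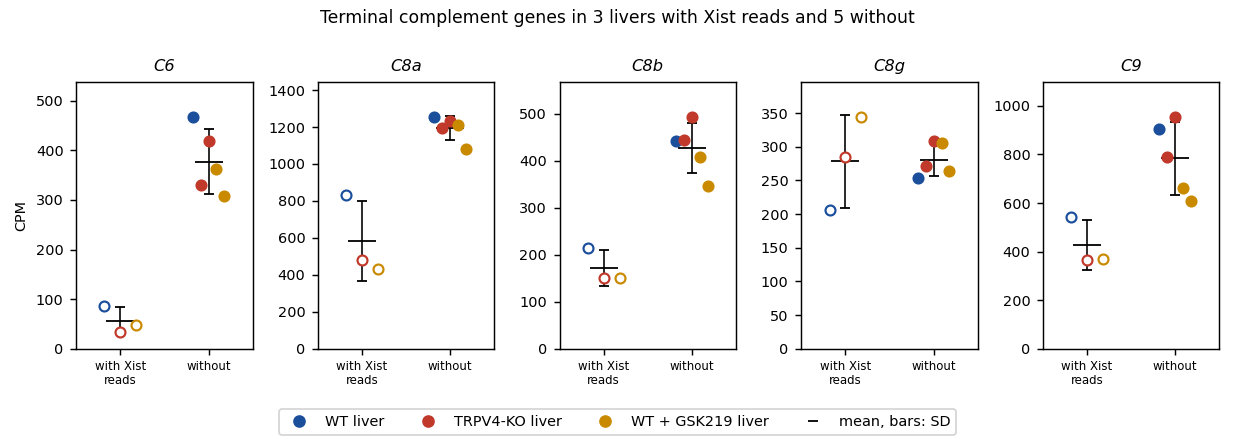
CPM of the 5 terminal complement genes in the 3 livers with Xist reads and the 5 without, colored by group, with mean and SD. C6, C8a, C8b and C9 lie lower in all 3 livers with Xist reads, and C8g does not (278 against 281 CPM on average).

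Mbl2 moved the other way with Xist reads (log2 difference 0.76, SE 0.15, edgeR adjusted p = 0.0314), at 351 ± 65.1 CPM (SD, n = 3) against 220.1 ± 56.6 CPM (SD, n = 5), and Cfp differed by 0.92 (SE 0.21, edgeR adjusted p = 0.0583). Of the Kupffer cell and macrophage markers, 12 of 12 were positive, with a median log2 difference of 0.63 against 0.02 over all genes. An unadjusted p under 0.05 was found for 9 of these markers (13.4% of all genes were higher at that level), and 1, Vsig4, was called (1.05%). Within each group their summed level was highest in the liver with Xist reads. Their part in the values of Cfp, the C1q chains and C5ar1 was not tested. C3 was 1.43-fold higher with Xist reads (edgeR adjusted p = 0.0583) and did not overlap between the 2 sets of livers. In that direction 2 members, C3 and F7, did not overlap, against 6.24% of all genes. Leaving out single livers kept C6, C8a and C8b called each time (edgeR adjusted p up to 0.0464).

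Further genes of both cascades, 38 of complement and 42 of coagulation and fibrinolysis, were chosen with earlier results of these data known. Of the 33 complement genes tested, 0 were called between WT and TRPV4-KO, with 6 higher and 2 lower at an unadjusted p under 0.05, and of the 33 coagulation genes 0 were called, with 9 higher and 1 lower (9.5% of all genes were higher and 7.61% lower). C7, which joins C6 in the terminal complex, was higher in WT by 1.72 on the log2 scale (edgeR adjusted p = 0.113), and the ficolin Fcna, a lectin of macrophages, by 1.56 (edgeR adjusted p = 0.119). Thrombomodulin (Thbd), the endothelial receptor that redirects thrombin to protein C, was higher by 1.96 (edgeR adjusted p = 0.0766), the inhibitor Serpina10 by 0.60 (edgeR adjusted p = 0.125) and the fibrinolysis inhibitor Cpb2 by 0.42 (edgeR adjusted p = 0.135). Among those lower in WT at an unadjusted p under 0.05 were Cd59a, an inhibitor of the membrane attack complex (log2 fold change -0.42, edgeR adjusted p = 0.223), and Hgfac (-0.50, edgeR adjusted p = 0.191). C1rb, the copy of C1ra, had the lowest value, -1.95 (edgeR adjusted p = 0.321), with 9 and 15 counts in WT livers and 103, 13 and 18 in TRPV4-KO livers, of which TRPV4-KO 1 stood apart. Between WT and GSK219, 0 of either list were called, with 5 and 8 higher (5.87% of all genes) and 0 lower (2.34%) at an unadjusted p under 0.05. With Xist reads, C4a and Susd4 were called lower among the complement genes (log2 differences -4.17 and -5.07, edgeR adjusted p = 0.000806 and 0.000809) and Vsig4 higher (1.05, edgeR adjusted p = 0.0446). Among the coagulation genes, the thrombin receptor F2r (-1.61, edgeR adjusted p = 0.000217) and the protease inhibitor Serpine2 (-2.82, edgeR adjusted p = 0.000444) were called lower and Gas6 higher (1.35, edgeR adjusted p = 0.00076), against the 0.86% and 1.05% of all genes given above.

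In PSCs tissue factor, F3, had the highest level, with a normalized signal per kb of 6521 ± 739 (SD, n = 3) in DMSO and 5838 ± 1544 (SD, n = 3) in Yoda1. C3 followed at 444 ± 25.9 in DMSO, protein S (Pros1), the cofactor of protein C, at 389 ± 27.7, and the C1 inhibitor Serping1 at 332 ± 66.1. C3, Pros1 and Serping1 lay far below F3 in both conditions, and Serping1 was above C3 on average in Yoda1 (428 against 352 per kb). Markers of duct epithelium and islets were present in these cultures. In DMSO, Krt18 had a normalized signal of 24708, 23716 and 33730, Epcam 3044, 3067 and 5137, and Ins2 5150, 4657 and 4952. Which cells held F3, C3, Pros1 or Serping1 was not tested. The 24 members that were not listed included the fibrinogen chains, F2, F9, F10, plasminogen and the terminal components, and Mbl2, F7 and Serpinc1 were listed but too low to test.

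Yoda1 changed 0 of the 20 tested members past the threshold in either direction by limma (0.733% of all genes tested were called higher and 0.786% lower), and edgeR on the recovered reads called 0 as well. At an unadjusted p under 0.05, 1 was higher (11.2% of all genes) and 4 were lower (11.5%), and DMSO and Yoda1 did not overlap for the same 1 higher (14.9%) and 4 lower (15.1%) genes. The preparations pair the libraries, and with the preparation as a block, F5 was called higher (1.66% of all genes) and C1qc lower (1.32%).

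The 3 C1q chains were lower with Yoda1 in all 3 preparations. C1qc had a normalized signal of 198, 211 and 272 in DMSO and 78.1, 68.3 and 148 in Yoda1 (log2 fold change -1.27, SE 0.31, limma adjusted p = 0.0723, and 0.00701 with the block). C1qa had 196, 241 and 278 in DMSO and 95.9, 104 and 176 in Yoda1 (log2 fold change -0.96, SE 0.26, limma adjusted p = 0.0936, and 0.00897 with the block). C1qb had 142, 142 and 198 in DMSO and 66.8, 61.7 and 136 in Yoda1 (log2 fold change -0.94, SE 0.32, limma adjusted p = 0.157, and 0.0157 with the block). In each chain the highest Yoda1 library, preparation 3, lay below the lowest DMSO library. Without Yoda1 replicate 3 the 3 chains were called (limma adjusted p 0.00998 to 0.0192).

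Macrophage markers were present in these cultures. Of 12 markers, 9 were listed and 8 tested, and 0 of the 8 had an unadjusted p under 0.05, with 2 of 8 positive and a median log2 fold change of -0.29. With the preparation as a block 2 of the 8 had one, Cd68 higher (log2 fold change 0.75, limma adjusted p = 0.0802) and Marco lower (-0.56, limma adjusted p = 0.0927), each in 3 of 3 preparations. Their summed signal was 2839, 3015 and 2842 in DMSO and 2576, 2569 and 3774 in Yoda1, and Clec4f, Timd4 and Adgre1 were not listed. Of the 11 PSC markers tested, 8 were lower with Yoda1 in all 3 preparations and 3 (Pdgfra, Fap and Des) higher. Called lower were 2, Col3a1 and Acta2 (log2 fold changes -1.19 and -1.70), against 0.786% of all genes. The part of either cell type in the C1q values was not tested.

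C3 was also lower with Yoda1 in each preparation, with a signal of 2238, 2431 and 2175 in DMSO and 1594, 2007 and 1833 in Yoda1 (log2 fold change -0.34, SE 0.09, limma adjusted p = 0.1002, and 0.0182 with the block). F5, the cofactor of factor X, was low and higher with Yoda1 in each preparation, at 24.9, 15.7 and 39.4 in DMSO and 49.9, 58.4 and 78.6 in Yoda1 (log2 fold change 1.26, SE 0.36, limma adjusted p = 0.104, and 0.0203 with the block). Serping1 had 706, 663 and 948 in DMSO and 802, 945 and 1240 in Yoda1, higher in each preparation (log2 fold change 0.36, SE 0.20, limma adjusted p = 0.329, and 0.0277 with the block). Pros1 had 1468, 1610 and 1692 in DMSO and 1561, 1761 and 1721 in Yoda1 (log2 fold change 0.08, SE 0.08, limma adjusted p = 0.575), and the conditions overlapped. F3 had 18316, 14585 and 16535 in DMSO and 12784, 12227 and 19246 in Yoda1, which overlapped and moved in both directions (log2 fold change -0.18, SE 0.18, limma adjusted p = 0.593). Cfb had 6.23, 19.1 and 12.1 in DMSO and 12.2, 18.9 and 32.9 in Yoda1 (log2 fold change 0.74, SE 0.50, limma adjusted p = 0.422), and C2 had 31.2, 38.1 and 64.6 in DMSO and 52.7, 52.7 and 71.4 in Yoda1 (log2 fold change 0.45, SE 0.30, limma adjusted p = 0.426). C1ra had 534, 523 and 501 in DMSO and 411, 542 and 419 in Yoda1, and C3ar1 248, 267 and 222 in DMSO and 256, 246 and 292 in Yoda1. The conditions overlapped for these 4 genes, although C2 was higher with Yoda1 in 3 of 3 preparations (limma adjusted p = 0.158 with the block). F13a1, at 116, 87.5 and 108 in DMSO and 78.1, 64.2 and 143 in Yoda1, overlapped as well. Of the other coagulation genes, 1 of 30 tested was called, against 0.733% of all genes called higher and 0.786% lower. It was Gas6, a protein S-related ligand, which was lower by 1.54 on the log2 scale (limma adjusted p = 0.0057). Of 19 other complement genes, 0 were called. With the preparation as a block, 4 of the 30 coagulation genes were called, against 1.66% of all genes called higher and 1.32% lower. Thbd (log2 fold change 1.07, limma adjusted p = 0.0160) and the protein C receptor Procr (1.56, limma adjusted p = 0.0195) were higher. The platelet receptor chain Gp1bb (-1.21, limma adjusted p = 0.0246) was lower beside Gas6.

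**Figure D5:**
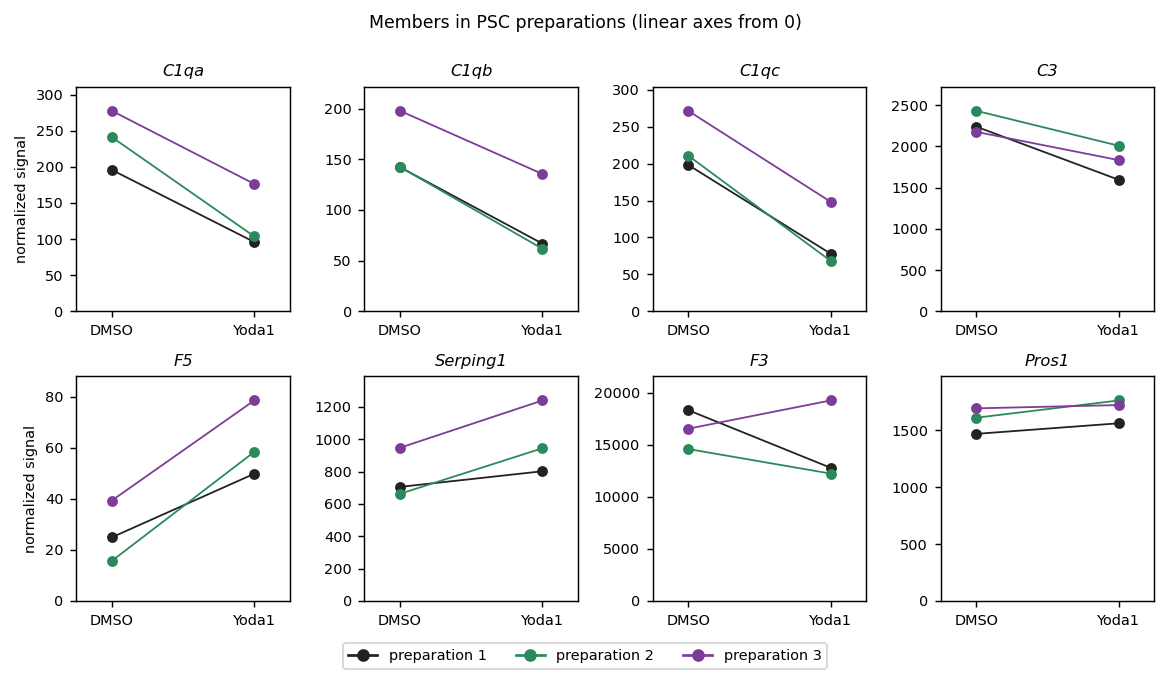
Normalized signal of 8 genes in the 3 PSC preparations, each line joining DMSO and Yoda1 of the same preparation. The C1q chains and C3 slope down and F5, Serping1 and Pros1 slope up in all 3 preparations, whereas F3 falls in 2 and rises in 1.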

How the data were processed

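Liver and PSC RNA was extracted with the Ribopure kit, and, per the labels, liver libraries were made by Novogene and PSC libraries by a Duke core facility. The submitters' processing notes name HISAT2 2.0.5 and Trim Galore, without saying which set each served. The liver values are raw counts per gene as deposited by the authors, whose coordinates were those of GRCm38 for 98.3% of shared genes. Of the liver table, 7 further count columns matched no sample and were not used. The PSC values deposited by the authors are a signal, gene counts divided by 1 size factor per library. Whole reads were recovered for 100% of values within a tolerance of 0.01. The authors' own fold changes and p-values were not used.

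Livers were fitted together with edgeR 4.0.16 (R 4.3.3, TMM, filterByExpr with a minimum count of 10, robust quasi-likelihood test). CPM are TMM-normalized. PSCs, whose unit is not counts, were fitted with limma 3.58.1 on log2(value + 1), for genes at 10 or more in at least 3 libraries, so fold changes of low genes are understated. P-values were adjusted over all genes tested (Benjamini-Hochberg, two-sided), and a call needed both an adjusted p below 0.05 and a difference of more than 1 on the log2 scale. The Xist term marks livers with more than 1000 Xist counts. DESeq2 1.42.0 was an alternative. Both fits were tested on simulated data.

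Same-numbered PSC libraries come from 1 preparation per the column names, and their deviations correlated at 0.431, 0.262 and 0.527. Members and lists were chosen with earlier results of these data known. Values in every sample are given for members called, the 6 per direction with the smallest unadjusted p in each comparison, the 6 with the smallest p for the Xist term, and the fibrinogen and C1q chains, C3, Mbl1, Mbl2, C6, C9, F3, F7 and F8. The labels call the samples of a group biological replicates, and the study gives the WT and TRPV4-KO livers as separate animals.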

Additional observations from a re-analysis of the deposited data

How the results depend on the processing

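With 2 WT livers the number of members called higher in WT than in TRPV4-KO, 1 by edgeR, moved most with the model. The share of all genes called moved with it, from 0.152% by edgeR. The members called were 4 with a term for Xist reads (1.67% of all genes), 5 with DESeq2 (2.45%), 7 with DESeq2 and the Xist term (3.27%, chosen after seeing the data), 7 with a replicate block (2.32%) and 0 in a fit of only the 2 groups compared (0.0745%), and 0 to 6 when single livers were left out (0.0126% to 3.83%). The 6, without TRPV4-KO replicate 3, were C1qa, C1qb, C1qc, F13a1, Fga and Fgg. For WT over GSK219, 0 by edgeR, DESeq2 called 1 (0.423%) and DESeq2 with the Xist term 3 (1.05%). Leaving out single livers gave 0 to 1 members higher with Xist reads (Cfp without GSK219 replicate 2, 1.64%). The liver replicate numbers did not pair the samples (correlations -0.484 to 0.580, mean 0.136), so the block there only shares a number. In PSCs, against 0 by limma in each direction, the replicate block called 1 higher (F5, 1.66%) and 1 lower (C1qc, 1.32%), as did edgeR on recovered reads with the block (1.79% and 1.3%), and leaving out single libraries gave 0 to 3 lower (3 without Yoda1 replicate 3, of 167 genes in all). The cause of these moves was not tested. Single members were followed only if called or among those with the smallest unadjusted p in a comparison. Of their fold changes, 757 values kept direction and side of the threshold, 21 gained and 8 lost the call, and none reversed. Members chosen this way seldom reverse, so the lack of reversals says little about the others. F13a1 rests on 6 to 42 counts per liver.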
